A study of Homo sapiens with 8 samples.

Results

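Oxidative phosphorylation couples the oxidation of NADH and succinate to the synthesis of ATP in the inner mitochondrial membrane. Complex I (NADH dehydrogenase) and complex II (succinate dehydrogenase) pass electrons to ubiquinone, complex III and cytochrome c carry them to complex IV (cytochrome c oxidase), and complex V is the ATP synthase. Complexes I, III, IV and V combine subunits encoded in the nucleus with subunits encoded in mitochondrial DNA, and complex II is encoded in the nucleus alone. The genes described here are the nuclear ones, chosen by symbol: all genes starting with NDUF, UQCR, COX4 to COX8 or ATP5, and SDHA to SDHD, CYC1 and CYCS. They held 99 of the 9962 positions in the deposited table of N1-methyladenosine (m1A) sites, in 47 of its 4945 genes. CYCS, which encodes cytochrome c, had no listed position, so complexes I to V and 3 assembly factors of complex I were covered.

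The study silenced TRMT6 with small interfering RNA in neuroblastoma cells and compared them with control cells, with 2 m1A immunoprecipitates and 2 inputs per condition. The TRMT6 protein, which has no catalytic activity of its own, works with TRMT61A as the methyltransferase that places m1A in the T loop of cytosolic tRNAs, and in some mRNAs with a similar stem and loop. TRMT6 had no listed position, so the table holds no check of the silencing. Fragmented poly(A) RNA was precipitated with an antibody against m1A. The titles name the cells SK-N-BE while the cell line field has SK-N-AS, both being established neuroblastoma lines, so which of them was used is unclear. The control agent is not described further. Nothing says that replicates were separate cultures, so a p-value between libraries may reflect technical spread alone. The table gives 4 columns of reads, named by condition and number. They are taken here as the m1A libraries because the table lists m1A sites, although the names alone would also fit the inputs. Without input values, a change in m1A cannot be told apart from a change in the transcript's level, nor fewer cells of a type from less RNA per cell.

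The reads at all listed positions came to 40771 in siTRMT6 1, 13812 in siTRMT6 2, 8655 in control 1 and 46007 in control 2. These totals are not the depth of the libraries, and a listed 0 could stand for absent reads or for a site that was not called. Of 7 noradrenergic neuroblastoma markers, 5 had a listed position (PHOX2A, HAND2, GATA3, DBH and TH), against 1 of 6 mesenchymal markers (VIM) and 0 of 4 markers of leukocytes, endothelium, epithelium and astrocytes.

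The base at a listed position could be read wherever the position fell inside a promoter window of its gene in RefSeq's GRCh38.p14 annotation, the build being hg38 in the submitters' processing notes. This was so for 10 positions of the oxidative phosphorylation genes. The 8 of them with 10 bases on both sides in the window are printed 5′ to 3′ on the transcript strand, with the listed base in capitals, because m1A is a mark of adenosine and the sequence shows whether the listed base is one.
ATP5F1, plus strand, chromosome 1, position 111449374: gcgttacttgActcttctcgc
ATP5F1, plus strand, chromosome 1, position 111449386: tcttctcgcgAtaattttttt
NDUFA1, plus strand, chromosome X, position 119871596: cctttcctggAgaaagctgct
ATP5E, minus strand, chromosome 20, position 59032348: ctcttccgctTctgtggtctg
NDUFA2, minus strand, chromosome 5, position 140647706: tttatatcatTggccaagctt
NDUFA6, minus strand, chromosome 22, position 42090871: agcctcagagTcatcctcccg
NDUFB1, minus strand, chromosome 14, position 92121689: cgggttgagtTccctgttgcc
NDUFB1, minus strand, chromosome 14, position 92121704: cagcttccacTggcgcgggtt

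The listed base was an A in all 5 readable positions of plus-strand genes and a T in all 5 of minus-strand genes. The other genes of the table gave the same split: 55 of 55 plus-strand positions were an A and 315 of 315 minus-strand positions were a T. Every listed base that could be read was therefore an A on the forward strand of the genome, whichever strand the gene is on. In a minus-strand transcript that base is a uridine, so the readable minus-strand positions do not name an adenosine of the annotated transcript. The remaining positions lay outside these windows, and their bases were not read.

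The genes were split by strand as well. Of the 99 positions, 85 (85.9%) lay in plus-strand genes and 14 (14.1%) in minus-strand genes, against 73.2% and 26.8% of the records of all other genes. RefSeq's promoter table gave a strand for 40 plus-strand and 39 minus-strand genes of the same symbols. Of these, 31 plus-strand genes (77.5%) and 6 minus-strand genes (15.4%) had a listed position, against 29.3% and 16.4% of the other protein-coding genes. These shares rest on 37 of the 47 listed genes, since 6 listed plus-strand genes and 4 listed minus-strand genes have no entry in the promoter table. All 10 minus-strand genes with a position were ATP5E, ATP5G3, ATP5J2-PTCD1, COX7A2L, NDUFA2, NDUFA6, NDUFA11, NDUFB1, NDUFC2 and UQCRB. The part of strand in which genes were listed was not tested, and the absence of a gene from the table cannot be read as absence of m1A.

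The letters GTTCNANNC, the T-loop-like motif of the TRMT6 and TRMT61A enzyme, were searched on both strands of 51-base windows centred on the listed base. They were in none of the 7 oxidative phosphorylation windows that fitted inside a promoter sequence, in 0.993% of the 302 windows of other genes, and in 1.17% of 35116 promoter windows of the same length. At shares this low, 7 windows are too few to show a difference. These windows cover only positions inside promoter sequences, and some are centred on a T of the transcript strand.

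Coverage of the pathway was wide and shallow. Of 98 protein-coding genes in RefSeq whose current symbol fits the pattern, 47 (48.0%) had a position, against 22.0% of all 20056 protein-coding genes. Another 3 genes of the pathway stand in the table under older symbols outside the pattern (ATPIF1, C14orf2 and C17orf89) and are not counted. The reads at a single position ran from 5 to 20, with a median of 9 in siTRMT6 1, 8 in siTRMT6 2, 8.5 in control 1 and 9 in control 2. All positions of the table had medians of 9, 8, 8 and 9 reads in the same libraries, with maxima from 150 to 221. The genes held 0.672% and 0.992% of the listed reads in siTRMT6 1 and 2, against 1.47% and 0.900% in control 1 and 2. Those shares overlapped (exact permutation p = 0.667, where 2 libraries against 2 allow no p below 0.33). Mitochondrial ribosomal protein genes held 0.356% and 0.311% in siTRMT6 1 and 2, against 0.324% and 0.365% in control 1 and 2. Cytosolic ribosomal protein genes held 1.29% and 3.38% in siTRMT6 1 and 2, against 3.86% and 1.26% in control 1 and 2, so libraries of the same condition differed widely.

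**Figure D1:**
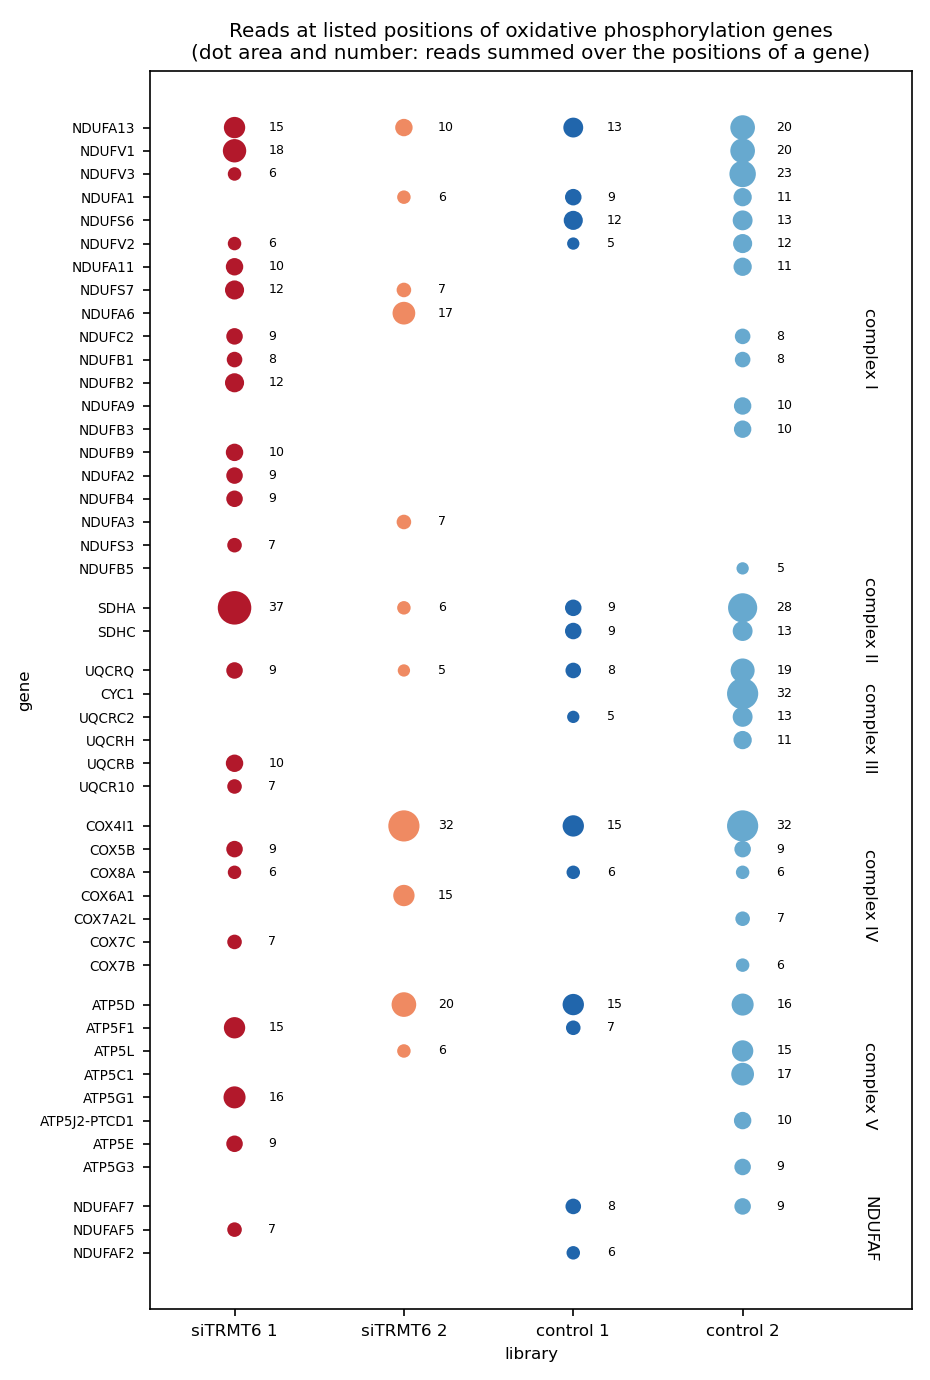
Reads at listed positions of the oxidative phosphorylation genes, 1 of which is not shown (rows, grouped by complex, with the NDUFAF assembly factors at the bottom) in each library (columns). Dot area and the number beside it give reads summed over the gene's positions, and an empty cell is a listed 0; SDHA, NDUFA13 and UQCRQ have reads in all 4 libraries.

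Listed reads of the pathway came from both conditions. Of the 47 genes, 15 had reads in the siTRMT6 libraries alone, 15 in the controls alone and 17 in both, against 27.0%, 33.9% and 39.1% of all genes. In the authors' deposited table, 44 of the 99 positions were higher and 55 lower in siTRMT6 at an adjusted p below 0.05. In either direction these calls covered 100% of all positions after rounding. By direction they took in 49.6% (higher) and 50.4% (lower) of all 9962 positions, so being called does not set these genes apart. Of the 44 higher positions, 16 had reads in a library other than siTRMT6 1, and of the 55 lower positions, 14 had reads in a library other than control 2. The authors' values rest on reads pooled over replicates: their log2 was recovered at all 9962 positions from the summed reads. Of the 99 positions, 98 had reads in 1 condition only, against 99.9% of all positions. No position in the table had an authors' p-value above 0.0478, so sites alike in both conditions are not listed. With so few reads per position, such a listing favours reads in 1 condition, and that pattern is no separate result. All counts of positions and genes here describe sites listed in this way. By library, 95 of the 99 positions had reads in 1, 3 in 2 and 1 in 3.

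When the libraries were tested as replicates, no oxidative phosphorylation gene passed. Summed per gene, 8 of the genes had enough reads for edgeR's quasi-likelihood test, and 0 of the 8 were called, against 0% of 975 genes tested in either direction. At an unadjusted p under 0.05 there were again 0 of the 8, against 12.9% of the 975, and DESeq2 called 0 of the 8 as well. The edgeR adjusted p was 0.99976 for each of the 8, and the standard errors (SE) of their log2 values ran from 1.55 to 2.77. Each edgeR SE here was worked back, as the size of the log2 over the square root of the test's F value, and is approximate. With TMM scaling the median log2 of all tested genes was 0.24, and with library totals alone it was 0.15. Position by position, 1 of the 99 passed the filter and was not called, against 38.2% called higher and 26.5% called lower of the 34 positions tested in the whole table. At an unadjusted p under 0.05 there were 0 of 1, against 64.7% of the 34.

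Complex I, the largest of the complexes, held 41 of the 99 positions, in 21 genes. It took 51.8% and 38.7% of the oxidative phosphorylation reads in siTRMT6 1 and 2, against 30.7% and 39.1% in control 1 and 2 (exact permutation p = 0.667, adjusted over the complexes 1). Of its positions, 20 were listed higher and 21 lower. NDUFV1 binds NADH and holds the flavin that takes its electrons. It had 18 reads in siTRMT6 1, at position 67611114 of chromosome 11, and 20 in control 2, at 67608632, both annotated to coding sequence in the first listed transcript. NDUFV1 had no reads in siTRMT6 2 or control 1, so the pair sets 1 library against 1 (edgeR log2 -0.086, SE 2.77, adjusted p = 0.99976).

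NDUFA13, an accessory subunit also known as GRIM-19, was the complex I gene with reads in every library. It had 15 reads in siTRMT6 1 and 10 in siTRMT6 2, against 13 in control 1 and 20 in control 2. Each count lay at a different base of chromosome 19 except in control 2, which had 15 reads at 19528173 in the 3' UTR and 5 at 19516322 in coding sequence. The conditions overlapped (edgeR log2 -0.23, SE 1.58, adjusted p = 0.99976). The 4 coding positions of NDUFA13 were also annotated to CTC-260F20.3 on the same strand.

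NDUFS7 is a core subunit near the site where ubiquinone is reduced. It had 12 reads in siTRMT6 1 and 7 in siTRMT6 2 at position 1395532 of chromosome 19, in the 3' UTR, and 0 in both controls. It was the complex I position with reads in both siTRMT6 libraries. The authors' deposited table gave it a log2 of 5.06 (adjusted p = 0.000151), a value that includes a stand-in of 0.5 reads for the controls. An antisense RNA, AC005329.7, was annotated at the same base, and reads of the 2 strands could not be told apart.

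NDUFS6, NDUFA1, NDUFV2 and NDUFV3 had more control than siTRMT6 reads. NDUFS6, a zinc-binding accessory subunit, had 0 reads in both siTRMT6 libraries, against 12 in control 1 and 13 in control 2. Those control reads lay 11 nt apart in coding sequence, at 1814439 and 1814428 of chromosome 5. NDUFA1, a small membrane subunit, had 0 reads in siTRMT6 1 and 6 in siTRMT6 2, against 9 in control 1 and 11 in control 2 (edgeR log2 -1.12, SE 2.22, adjusted p = 0.99976). That log2 was -0.18 without siTRMT6 1 and -6.44 without siTRMT6 2. Both 5' UTR positions of NDUFA1 also lay in RNF113A on the other strand.
NDUFV2, an iron-sulfur partner of NDUFV1, had 6 reads in siTRMT6 1 and 0 in siTRMT6 2, against 5 in control 1 and 12 in control 2. Both controls had reads at the same base of NDUFV2 (5 and 6, at 9117888 of chromosome 18), and siTRMT6 1 had its 6 reads 3 nt away. NDUFV3 had 6 reads in siTRMT6 1 and 23 in control 2, with none in the other 2 libraries.

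Accessory subunits of complex I with 1 or 2 positions mostly rested on 1 library. NDUFA6 had 17 reads in siTRMT6 2 alone and NDUFB2 had 12 in siTRMT6 1 alone, while NDUFA9 and NDUFB3 had 10 each in control 2 alone. In siTRMT6 1 alone, NDUFB9 had 10 reads, NDUFA2 and NDUFB4 had 9 each, and NDUFS3, a core subunit, had 7. NDUFA3 had 7 reads in siTRMT6 2 alone and NDUFB5 had 5 in control 2 alone. RefSeq lists 12 pseudogenes under the NDUFB4 symbol, so its reads are uncertain. The 3 assembly factors listed were NDUFAF2, NDUFAF5 and NDUFAF7. NDUFAF7, an arginine methyltransferase, had 0 reads in both siTRMT6 libraries, against 8 in control 1 and 9 in control 2 at bases 3 nt apart. Both bases were also annotated to CEBPZ on the other strand. NDUFAF2 had 6 reads in control 1 alone, and NDUFAF5 had 7 in siTRMT6 1 alone.

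Complex II had positions in 2 of its 4 genes, and SDHA had the most of any oxidative phosphorylation gene. SDHA, the catalytic flavoprotein that oxidises succinate, had 9 positions, all in coding sequence on chromosome 5. It had 37 reads in siTRMT6 1 and 6 in siTRMT6 2, against 9 in control 1 and 28 in control 2. The siTRMT6 libraries stood at both ends of this range (edgeR log2 0.23, SE 1.55, adjusted p = 0.99976). RefSeq lists 4 pseudogenes under the SDHA symbol, so its read numbers are uncertain. SDHC, a membrane anchor of the complex, had 0 reads in both siTRMT6 libraries, against 9 in control 1 and 13 in control 2, at 2 positions of its 3' UTR.

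Complex III was the complex whose share of reads did not overlap between conditions. It took 9.49% and 3.65% of the oxidative phosphorylation reads in siTRMT6 1 and 2, against 10.2% and 18.1% in control 1 and 2 (exact permutation p = 0.33, the smallest possible, adjusted over the complexes 1). CYC1, the cytochrome c1 subunit that hands electrons to cytochrome c, had 0 reads in both siTRMT6 libraries and in control 1, against 32 in control 2. UQCRC2, a core protein, had 0 reads in both siTRMT6 libraries, against 5 in control 1 and 13 in control 2. UQCRH, the hinge protein, had 11 reads in control 2 alone. UQCRB had 10 reads and UQCR10 had 7, both in siTRMT6 1 alone. CYC1 made up 32 of the complex's 88 control reads, and all of these lay in control 2.

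UQCRQ, a small membrane subunit of complex III, had reads in every library. It had 9 reads in siTRMT6 1 and 5 in siTRMT6 2, against 8 in control 1 and 19 in control 2 (edgeR log2 -0.73, SE 1.62, adjusted p = 0.99976). Both siTRMT6 counts lay at the same base, 132867012 of chromosome 5 in coding sequence, and control 2 had 9 reads 7 nt before it. The other control reads of UQCRQ lay in the 3' UTR, 8 in control 1 and 10 in control 2, at bases 9 nt apart.

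Complex IV took 8.03% and 34.3% of the reads in siTRMT6 1 and 2, against 16.5% and 14.5% in control 1 and 2, so the siTRMT6 libraries lay on both sides of the controls (exact permutation p = 1). The mean difference of 5.65 percentage points turned to -7.48 without siTRMT6 2. COX4I1, a nuclear-encoded subunit that takes part in the control of the enzyme by ATP, set this range. It had 0 reads in siTRMT6 1 and 32 in siTRMT6 2, against 15 in control 1 and 32 in control 2 (edgeR log2 0.16, SE 2.43, adjusted p = 0.99976; the sign turned with library totals alone, at -0.11). COX6A1 had 15 reads in siTRMT6 2 alone, over 2 positions. COX5B had 9 reads in siTRMT6 1 and 9 in control 2 at bases 6 nt apart, and COX8A had 6 in siTRMT6 1 and 6 in control 1 at bases 2 nt apart. COX8A had another 6 reads in control 2, in the 3' UTR. COX7A2L, which helps to join complexes III and IV into supercomplexes, had 7 reads in control 2 alone. COX7C had 7 reads in siTRMT6 1 alone and COX7B had 6 in control 2 alone.

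**Figure D2:**
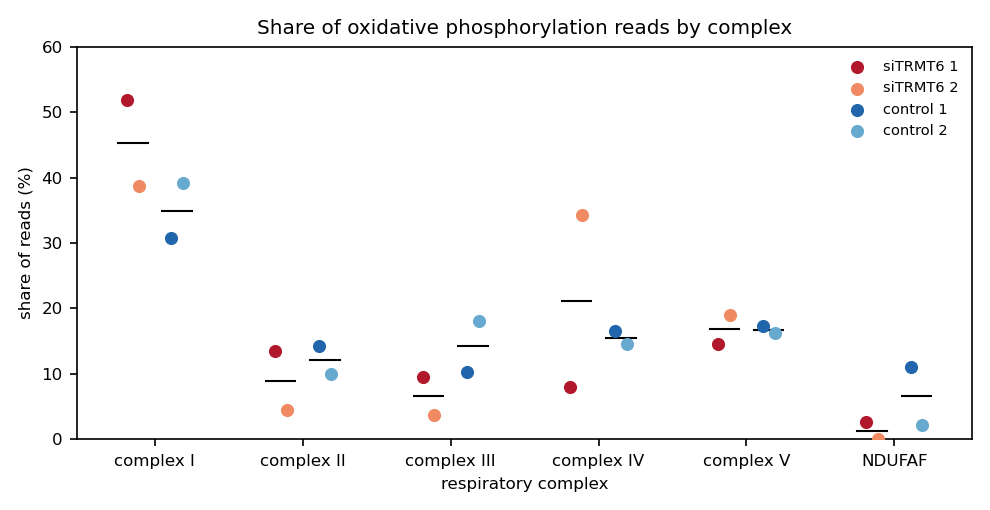
Share of the oxidative phosphorylation reads of each library (y axis, percent) held by each complex and by the NDUFAF assembly factors (x axis). Points are libraries, with siTRMT6 left of control, and bars are the means of 2 libraries; complex III is the one complex with both siTRMT6 points (9.49% and 3.65%) below both control points (10.2% and 18.1%).

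Complex V took 14.6% and 18.98% of the reads in siTRMT6 1 and 2, against 17.3% and 16.2% in control 1 and 2 (exact permutation p = 1). ATP5D encodes the delta subunit of the central stalk of ATP synthase. Position 1244805 of chromosome 19, in its 3' UTR, was the one oxidative phosphorylation position with reads in 3 libraries. It had 0 reads in siTRMT6 1 and 10 in siTRMT6 2, against 15 in control 1 and 16 in control 2. Both controls were above both siTRMT6 libraries in unscaled reads, but the listed totals were 13812 in siTRMT6 2 and 46007 in control 2. The siTRMT6 libraries differed by 10 reads (edgeR log2 -1.03, SE 2.001, adjusted p = 0.886). That log2 was -0.081 without siTRMT6 1 and -6.94 without siTRMT6 2. Summed over the gene, with 10 more reads of siTRMT6 2 in coding sequence, the conditions overlapped (edgeR log2 -0.044, SE 2.53, adjusted p = 0.99976).

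ATP5F1, the b subunit of the peripheral stalk, had 15 reads in siTRMT6 1 and 0 in siTRMT6 2, against 7 in control 1 and 0 in control 2. Its 5' UTR bases printed above held 8 of the reads of siTRMT6 1 and the 7 of control 1, 12 nt apart. The edgeR log2 of ATP5F1 was 0.43 (SE 2.57, adjusted p = 0.99976), and it turned to -1.01 with library totals alone. The base of control 1 was also annotated to WDR77 on the other strand. ATP5L, the g subunit, had 6 reads in siTRMT6 2 and 15 in control 2, and 0 in the other 2 libraries. Of the genes of the membrane c-ring, ATP5G1 had 16 reads in siTRMT6 1 alone and ATP5G3 had 9 in control 2 alone. ATP5C1, the gamma subunit, had 17 reads in control 2 alone. ATP5E, the epsilon subunit, had 9 reads in siTRMT6 1 alone. The readthrough gene ATP5J2-PTCD1 had 10 in control 2 alone, at a base also annotated to PTCD1.

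Counted over positions, 2 of the 99 were higher in both siTRMT6 libraries than in both controls (NDUFS7 and UQCRQ). Another 2 were lower (ATP5D and NDUFV2), against 0.703% higher and 0.632% lower of all positions. Reads were compared without scaling to the listed totals, which ran from 8655 in control 1 to 46007 in control 2. Divided by those totals, siTRMT6 2 lay above control 2 at the ATP5D position (10 of 13812 against 16 of 46007). The same held for NDUFA1 summed per gene (6 of 13812 against 11 of 46007). Summed per gene without scaling, 1 of the 47 (2.13%) was higher (NDUFS7), against 5.72% of all genes. Another 5 (10.6%) were lower (NDUFA1, NDUFAF7, NDUFS6, SDHC and UQCRC2), against 3.8% of all genes. None of these genes was called by edgeR, and of the 6 only NDUFA1 had enough reads to be tested. Pseudogenes by symbol are in RefSeq for 27 of the 47 genes, among them SDHC with 5, and 20 of the 99 positions were also annotated to another gene.

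Bases listed in different libraries often lay side by side. Joining positions of a gene within 200 nt gave 79 regions, of which 15 held reads of both conditions. These were 34.1% of the regions with siTRMT6 reads and 30% of those with control reads, against 30.2% and 28.8% in other genes. Over the 15 regions the median log2 ratio of siTRMT6 to control reads, each divided by its condition's total, was -0.22 (range -1.63 to 0.64). Other genes had a median of -0.15 over 1455 such regions. These regions were chosen for having listed reads in both conditions, and 6 of them were left without control 2, 8 without siTRMT6 1 and 9 without siTRMT6 2. There were 20 pairs of neighbouring positions within 200 nt, with a median distance of 11.5 nt, and 0 of the 20 pairs shared a library. No such share is given for other genes, and a listed 0 could be a base not called in that library. The 4 neighbouring positions of SDHA between 225928 and 225980 of chromosome 5 each came from another library, with 11 and 6 reads in siTRMT6 1 and 2, against 9 and 11 in control 1 and 2.
COX4I1 had 3 such regions. In each, siTRMT6 2 had 10 or 11 reads and 1 control library had 15 or 17, at distances of 10, 60 and 30 nt. The pairs of NDUFA11 (10 reads in siTRMT6 1, 11 in control 2), NDUFB1 (8 in siTRMT6 1, 8 in control 2) and NDUFC2 (9 in siTRMT6 1, 8 in control 2) lay on the minus strand, where the listed base of NDUFB1 was a T. Both NDUFC2 bases were also annotated to KCTD14.

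**Figure D3:**
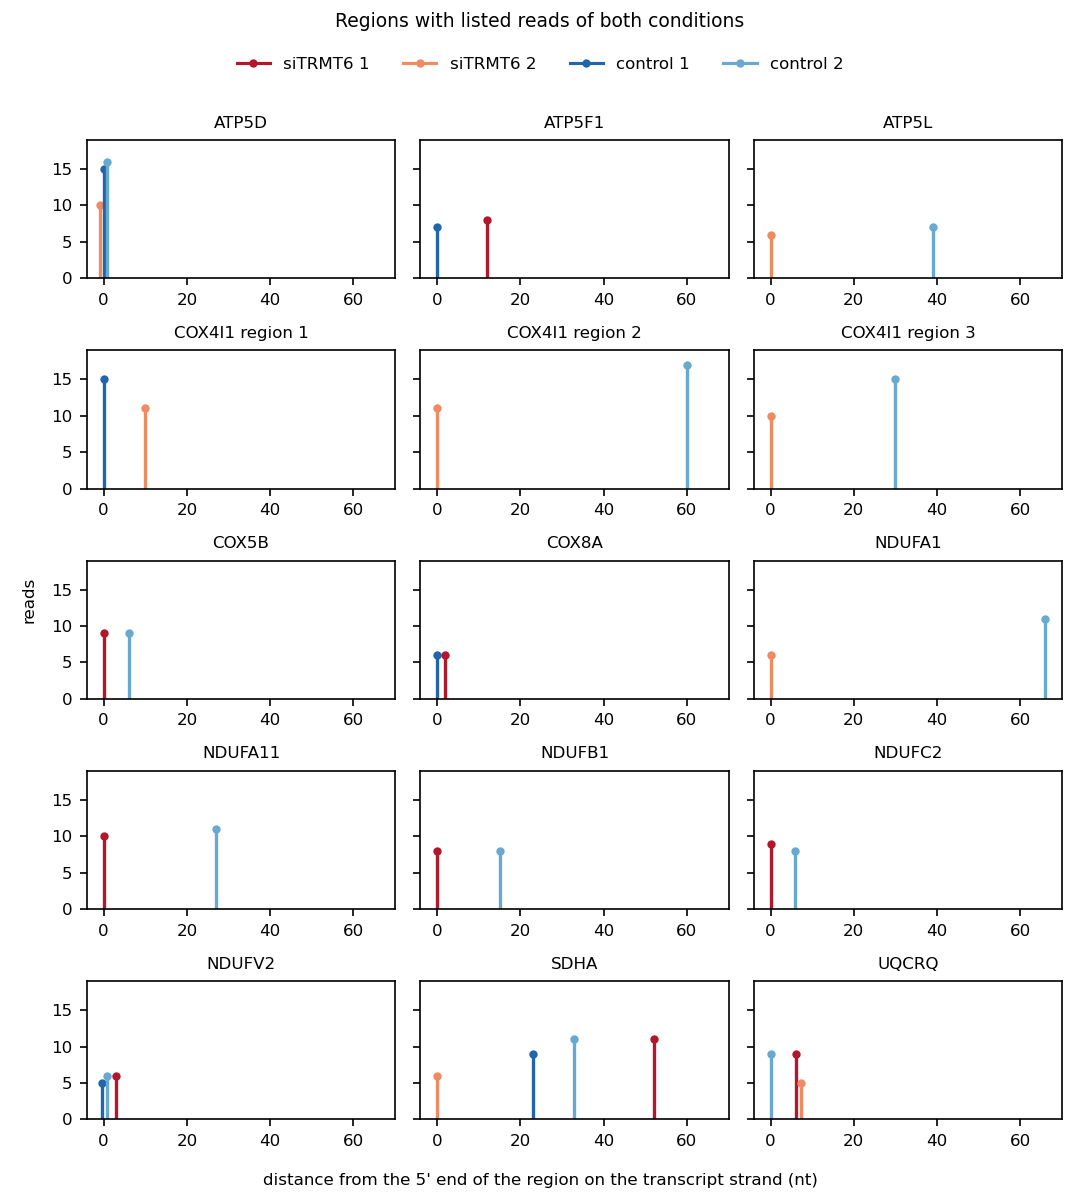
Listed reads (y axis) by distance along the transcript strand (x axis, nt from the 5′ end of the region) in the 15 regions with reads of both conditions. Each stem is 1 library at 1 listed base, and only stems of libraries that share a base (ATP5D, NDUFV2, UQCRQ) are set slightly apart. Stems of both conditions stand from 0 nt (ATP5D) to 66 nt (NDUFA1) apart.

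Positions lay mostly in coding sequence. By the first transcript listed for each position, 68 of the 99 (68.7%, Wilson 95% interval 59.0 to 77.0) were in coding sequence, 19 (19.2%, 12.6 to 28.04) in the 3' UTR and 12 (12.1%, 7.07 to 20) in the 5' UTR. Other genes had 65.6%, 22.4% and 12.02%. Per library, the 3' UTR share was 10% and 23.5% in siTRMT6 1 and 2 and 21.4% and 27.9% in control 1 and 2, and that of other genes was 21.9%, 23.3%, 17.1% and 23.2% in the same order. The mean difference of -0.64 percentage points was within the spread (exact sign-flip permutation p = 1), and it turned to 3.09 without siTRMT6 1. In the 3' UTR 5 positions were listed higher and 14 lower in the authors' deposited table, against 49.5% higher and 50.5% lower of all records there. In coding sequence 32 were higher and 36 lower, against 49.3% and 50.7% of all, and in the 5' UTR 7 were higher and 5 lower, against 51.9% and 48% of all. These directions mostly rest on positions read in 1 library, and no difference between regions was tested. The 12 positions in the 5' UTR were in complex I, complex V and NDUFAF7, and 0 were in complexes II, III and IV.

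**Figure D4:**
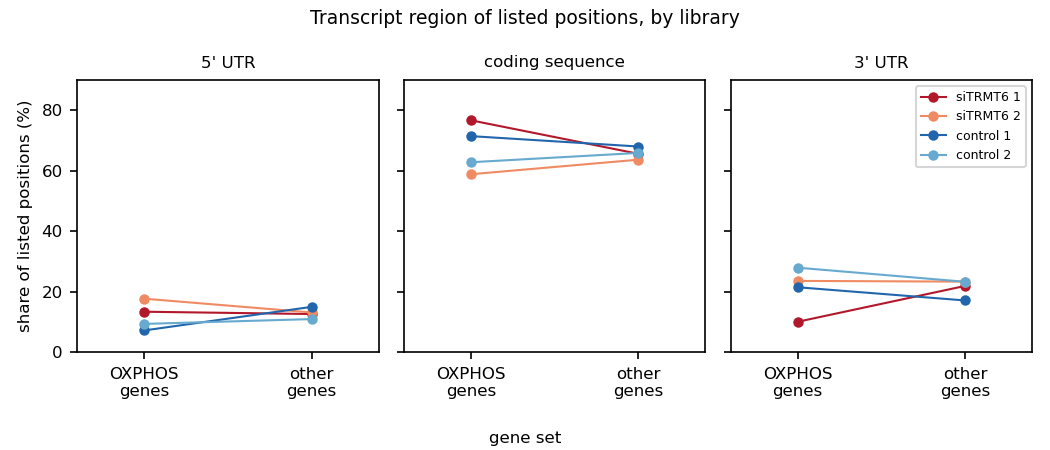
Share of listed positions in the 5' UTR, coding sequence and 3' UTR (y axis, percent) in oxidative phosphorylation genes and in other genes, with 1 line per library. The lines cross in each panel, and the 3' UTR share in oxidative phosphorylation genes runs from 10% in siTRMT6 1 to 27.9% in control 2.

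Positions lay nearer the start of the transcript than in other genes. Their median distance from the transcript start was 290 and 367 nt in siTRMT6 1 and 2 and 372 and 502 nt in control 1 and 2. Other genes had medians of 1084 and 1062 nt in siTRMT6 1 and 2 and 776 and 1132 nt in control 1 and 2. The distance was shorter in 4 of 4 libraries, by a mean log2 ratio of -1.42 (exact sign-flip permutation p = 0.13, the smallest that 4 libraries allow). Transcript length was not part of this comparison, and its part in the difference was not tested.

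Genes that build or regulate the pathway were counted apart. Of 54 assembly and biogenesis genes outside the symbol rule, 16 had a position, against 22.0% of all protein-coding genes. They include ATPIF1, named above among the older symbols. Of their positions, 8 were higher and 13 lower in the authors' deposited table, against 49.6% higher and 50.4% lower of all positions. HIGD2A, a complex IV assembly factor, had 33 reads in siTRMT6 1 alone, more than any oxidative phosphorylation gene except SDHA in that library. ATPIF1, the inhibitor of ATP synthase, had 23 reads in siTRMT6 1 and 11 in control 2. Of 13 transcriptional regulators 3 were listed, against the same 22.0% of all protein-coding genes. PPRC1, a coactivator of mitochondrial biogenesis, had 27 reads in siTRMT6 1 and 13 in control 2, while PPARGC1A and TFAM had no position. Among the partners encoded in mitochondrial DNA, MT-CO2 of complex IV had 221 and 144 reads in siTRMT6 1 and 2, against 220 and 193 in control 1 and 2. MT-ND5 and MT-ND6 of complex I had 0 reads in both controls, against 150 in siTRMT6 2 for MT-ND5, and 189 and 128 in siTRMT6 1 and 2 for MT-ND6. These are sums over 4 positions for MT-CO2 (2 listed higher and 2 lower), 1 for MT-ND5 and 2 for MT-ND6. A listed 0 could be a base not called in that library, so a gain at MT-ND5 or MT-ND6 cannot be read from these values.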

How the data were processed

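All measurements stand in a single table with 25539 lines, where a position has a line for every transcript it falls in. The submitters' processing notes name FastQC (0.11.3), STAR and the build hg38; how sites were called, counted, filtered and tested was not given in any source used here. For each position the authors deposited whole-number read counts in 4 columns. Beside them, per the file headers, stand a log2 value for the change, its p-value and its adjusted p. Dividing pooled siTRMT6 reads by pooled control reads, with 0.5 in place of 0, and then by 1.14 gave the authors' deposited log2 to within 0.001 at 9962 of 9962 positions. No deposited p-value exceeded 0.0478.

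Sites are listed counting from 0 and are given counting from 1. Each position and gene was kept once, with the region of the first listed transcript. Counts of positions or genes were tested with edgeR 4.0.16 in R 4.3.3 (TMM, filterByExpr with a minimum count of 10, quasi-likelihood test, Benjamini-Hochberg over all tested positions or genes at 0.05) and, as an alternative, DESeq2 1.42.0. The edgeR steps were tried on simulated gene counts with little spread between libraries beyond counting error. That trial does not show how the test performs on data as uneven between libraries as these. Shares were compared with exact two-sided permutation tests over libraries. Wilson intervals cover counting error only, and reads without molecular identifiers are not independent molecules. Genes were named by a rule: the 15 with the most reads, those with reads in 3 or more libraries, with reads of both conditions within 200 nt, with 1 base in 2 or more libraries, called by edgeR, with several transcript regions, or holding the highest position of a complex. The remaining genes are named so that each is accounted for, except 1 that enters all counts and tests but is not reported by name here. The members and lists were chosen with earlier results of these data known.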

Additional observations from a re-analysis of the deposited data

How the results depend on the processing

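With all libraries, no oxidative phosphorylation position or gene was called by edgeR or DESeq2 under any alternative run. The count stayed at 0 with library totals alone, equal library sizes, no filter and a replicate block. Of all genes, those edgeR runs called 0 of 975, 1106, 4945 and 975 in that order, and DESeq2 called 1 of 975. Of all positions, the edgeR runs called 14 of 34, 29 of 37, 0 of 9962 and 0 of 34. The oxidative phosphorylation genes tested numbered 8, 8, 47 and 8, and the positions 1, 1, 99 and 1. Leaving out siTRMT6 1 leaves 1 siTRMT6 library, and 11 oxidative phosphorylation genes were among the 820 genes tested. The median log2 was -0.18 over those 11 genes and -0.079 over all 820. The log2 was 7.50 for NDUFA6 and 7.32 for COX6A1, and -6.52 for NDUFS6, -6.31 for SDHC and -5.97 for NDUFAF7. These genes had listed reads in 1 condition only, and the others of the 11 lay between -0.96 (SDHA) and 1.06 (COX4I1). No replicate pairing was assumed, since the labels do not say what a number marks and same-numbered libraries deviated together with r = -0.099 over 975 genes. Of the 34 positions tested in the whole table edgeR called 22, and DESeq2 and the block called 0. With the block, the log2 of the ATP5D position was -2.74, that of COX4I1 turned to -2.33 and that of NDUFV1 to 0.034. Library totals alone turned the log2 of ATP5F1 to -1.01, COX4I1 to -0.11 and SDHA to -0.29, and equal library sizes turned COX4I1 to -0.55. With 1 library left out, the log2 ran from -6.94 to -0.081 for the ATP5D position, -6.44 to -0.18 for NDUFA1, -0.94 to -0.37 for UQCRQ, -0.31 to -0.14 for NDUFA13, -7.09 to 0.90 for ATP5D as a gene, -0.42 to 5.77 for ATP5F1, -7.58 to 1.06 for COX4I1, -0.98 to 0.96 for NDUFV1 and -0.96 to 0.93 for SDHA. At an adjusted p below 0.01 in the authors' deposited table, 22 positions were higher and 38 lower. The share over all positions at this cutoff is not given here. The cutoff was uneven by direction: 8 reads in the controls alone passed (authors' adjusted p = 0.00883), and 8 in siTRMT6 alone did not (0.0146). With 1 library left out, and the authors' calls kept for positions that still had reads, 16 to 44 positions were higher, 14 to 55 were lower, and 6 to 12 regions held both conditions, against 15 with all libraries. The lowest counts came without siTRMT6 1 (16 higher) and without control 2 (14 lower and 6 regions); regions numbered 8 without siTRMT6 1, 9 without siTRMT6 2 and 12 without control 1. The difference in 3' UTR share ran from -2.42 to 3.09 percentage points, the highest without siTRMT6 1. The siTRMT6 minus control share ran from -7.66 to 1.47 percentage points for complex II, -7.48 to 18.8 for complex IV and -2.15 to 2.22 for complex V, where II turned to 1.47 and IV to -7.48 without siTRMT6 2, and complex V turned to -1.17 with structural subunits only. That of complex I ran from 3.77 without siTRMT6 1 to 16.9 without siTRMT6 2, and that of complex III from -11.5 without control 1 to -3.67 without control 2. With plus-strand positions only, an alternative chosen after seeing the data, 36 were higher, 49 lower and 12 regions held both conditions, and the 3' UTR difference turned to 0.62. The cause of these shifts was not tested. At 5 to 20 reads per position, counting error alone is large.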
